A study of Mus musculus with 2 samples.

Results

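Insulin and IGF signalling was followed here through the transcripts of 10 genes that Mbnl2 could contact in quadriceps muscle. The genes, given by name, were the ligand gene Igf1, the receptor genes Insr and Igf1r, the receptor substrate genes Irs1 and Irs2, Pik3r1, Grb10, the kinase genes Akt1 and Akt2, and Slc2a4, out of 22380 protein-coding genes in the mm9 GENCODE annotation. Members were counted by tags on the strand of the gene, and no other annotated gene on that strand overlapped them. In this pathway, insulin or IGF1 binds a receptor tyrosine kinase, which phosphorylates the Irs docking proteins. These recruit PI 3-kinase, whose lipid product activates the Akt kinases, and in muscle Akt2 drives the glucose transporter GLUT4, the product of Slc2a4, to the cell surface. Insulin insensitivity is part of myotonic dystrophy, the disease in which muscleblind-like (MBNL) proteins are sequestered, and exon 11 of the insulin receptor gene is a known MBNL splicing target in human muscle.

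The data came from HITS-CLIP, in which UV light fixes a protein onto bound RNA, RNase A trims that RNA and the fragments that copurify are sequenced as tags. Mbnl2 was immunopurified from quadriceps of 3 WT and 3 Mbnl1-/- (Mbnl1 KO) mice aged 15 to 16 weeks that the labels give as C57BL/6. The knockout is constitutive and targets exon 3 by name, no mouse received a treatment, and the 3 mice of a genotype are merged in 1 table. The spread between mice is therefore unknown and the genotypes were not tested against each other, so all intervals below are exact 95% intervals that cover counting error only. A tag is 1 unique position and sequence, so several tags can share a position. A ratio is Mbnl1 KO over WT after dividing each count by the tags in its table, and a level in CPM is the count of tags per 1000000 tags of that table. Neither RNA levels nor the number of cells of each type was measured, so more binding and more transcript cannot be told apart.

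In all, 343554 tags came from WT and 476543 from Mbnl1 KO, resting on 5176203 and 50329234 reads. Read counts below are not scaled for this difference. Tags over genome sequence of which at least 70% is the same base (single-base tags) were 44.0% of those on assembled chromosomes in WT against 17.0% in Mbnl1 KO, so the ratios of the members are also given without them. That leaves 194966 tags in WT and 396309 in Mbnl1 KO, or 55710 and 177766 with at least 2 reads required as well. Since WT loses more, the scaled ratio of a gene that keeps its tags falls with each filter. Mbnl1 itself had 100 WT and 452 Mbnl1 KO tags, and its annotated exon 3, which may not be the deleted exon, had 0 and 4. All 10 skeletal muscle markers, Acta1, Ckm and Ttn among them, had tags in both tables, with 2911 CPM in WT and 7676 in Mbnl1 KO. Adipocyte markers, of interest because fat also uses Slc2a4, had tags at 4 of 6 genes in WT (23.3 CPM in sum) and at 5 of 6 in Mbnl1 KO (98.6 CPM). Lep had 0 WT and 5 Mbnl1 KO tags and Plin1 had 0 and 1, while Retn had 1 and 0. The summed level was 547 and 1664 CPM for fibroblast markers, 178 and 237 for endothelial markers, 69.9 and 50.4 for macrophage markers, and 17.5 and 92.3 for Schwann cell markers. The part of other cell types in the results below was not tested.

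Overlapping tags at the members formed 16 clusters with at least 5 tags. Sequences are shown for the site with the most tags in each of Igf1, Irs1, Pik3r1, Grb10, Akt1 and Slc2a4, and for further sites of Irs1, Pik3r1, Akt1 and Slc2a4 that the results below compare. Insr, Akt2 and Igf1r had no such cluster, and a site of 3 or 4 tags is shown for each. The sites were chosen after their values were seen, and those with a motif are shown more often than they occur. Each line is 30 nt of mm9, 5′ to 3′ on the gene's strand, centred on the position with the most tags, and the capitals mark TGCT and the related words TGCC, then also CGCT and its variant CGCC, the DNA spelling of the 4 words that MBNL proteins are known to favour.
Igf1 3′ UTR: gattTGCTtctTGCTattgtgatattctgt
Irs1 3′ UTR: taaacctctctttgtccaCGCTgtcccttt
Irs1 intron: cctccccTGCCtTGCTgtccTGCTacttcg
Pik3r1 3′ UTR, distal site: tttcttTGCTatTGCTttgttttgtcttat
Pik3r1 3′ UTR, proximal site: ttctgttttgtttTGCTgaaggctataaac
Pik3r1 intron: cctggctTGCTggctgtctTGCTcacctgc
Grb10 3′ UTR: tcccgcgTGCTtTGCTtcaccttgTGCTat
Akt1 3′ UTR, main site: tccgtcaccctggcctgtcccctcccggcc
Akt1 3′ UTR, smaller site: gtTGCTgtgtcccaTGCTgttcagagacat
Slc2a4 coding, distal site: cgtcctccTGCTtggcttcttcatcttcac
Slc2a4 coding, proximal site: ttctcagctgTGCTtggctcccttcagttt
Insr 3′ UTR: cacaaaatcagttcctcaaattgaccaata
Akt2 intron: gctccagcttcagccTGCTtatctgcataa
Igf1r intron: ttgtttctgcatcccCGCTaccccTGCCta
Of the 16 windows at clusters with at least 5 tags, 9 held at least 1 of the 4 words (56.2%). The share was 49.6% over the windows of all 7395 clusters of that size on the strand of a protein-coding gene. Leaving out windows of at least 70% one base, it was 9 of 15 at the members and 66.1% of 5425 over all such clusters. The members' share was thus above that of all clusters in the first count and below it in the second. The words were searched on the gene's strand only, they can overlap, and a match is a description of the sequence.

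The 10 genes had 118 tags in WT and 301 in Mbnl1 KO, which scales to a ratio of 1.84 (1.48 to 2.30). All 9 members with tags in both tables had a ratio above 1, as did 79.9% of the 3888 protein-coding genes with at least 20 tags in both tables together. The interval lay above 1 at 4 members, Igf1, Irs1, Pik3r1 and Slc2a4, which are 4 of the 7 with at least 20 tags, against 38.6% of genes in the background, and below 1 at none, against 3.83%. A ratio of at least 2 was reached by 2 of these 7, Irs1 and Slc2a4, against 41.6%, and a ratio of at most 0.5 by none, against 3.76%. The median ratio of these 7 was 1.85, beside 1.75 over all genes with at least 20 tags. After single-base tags were dropped, the summed ratio was 1.37 (1.09 to 1.73), the interval lay above 1 at Slc2a4 alone, against 26.5% of 3307 genes, and the medians were 1.36 and 1.48. The ratio then reached 2 at 1 of the 7, Slc2a4, against 29.1%, and was at most 0.5 at none, against 2.81%. With at least 2 reads required as well, the summed ratio was 0.900 (0.670 to 1.22) and no member's interval lay above 1, against 11.1% of 1651 genes. Under both filters 2 of the 6 members with at least 20 tags, Irs1 and Pik3r1, had a ratio above 1, against 72.7% of genes, and none of the 6 reached 2, against 22.6%, or fell to 0.5, against 2.97%. Their median ratio was 0.703, beside 1.33 over all genes, a difference that was not tested. Over all 10 members, with Slc2a4 (2.51) and others of fewer tags, the median was 0.907. The summed excess over WT at these transcripts was therefore near that of all genes when every tag counted, and was not seen under both filters. The intervals of the 9 genes with WT tags share the range from 1.65, the lower bound at Slc2a4, to 2.37, the upper bound at Grb10. Differences in ratio between members were not tested.

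**Figure D1:**
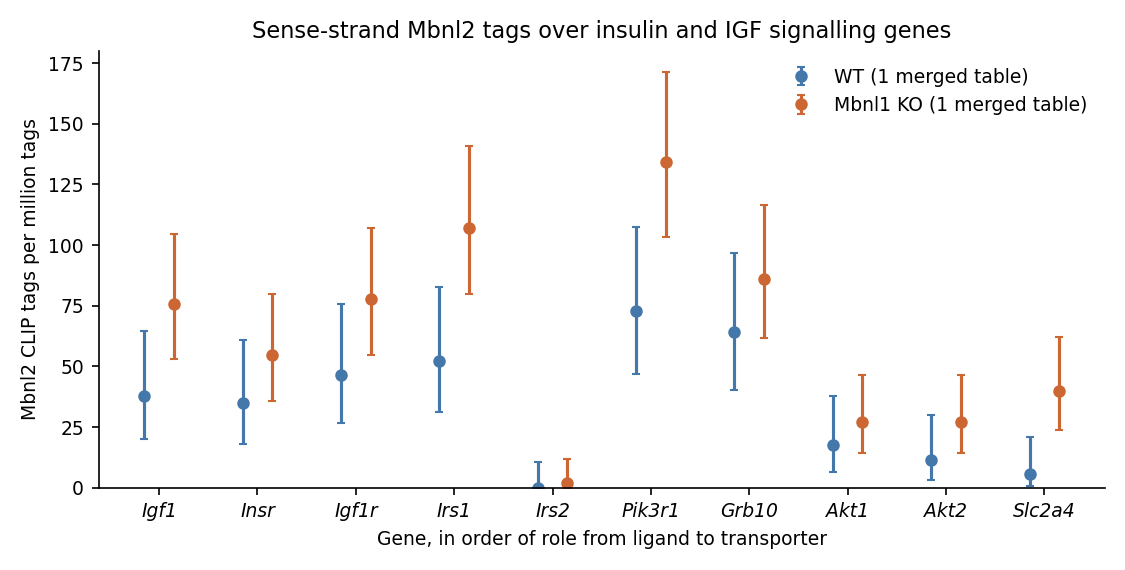
Mbnl2 tags on the strand of each gene in CPM in the WT and Mbnl1 KO tables, 1 merged table each. Points are counts divided by the table total and bars are exact 95% Poisson intervals. Every Mbnl1 KO point lies above its WT point, with overlapping bars at every gene but Slc2a4, and Pik3r1 stands highest at 72.8 and 134 CPM.

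Igf1 encodes the growth factor that muscle makes for its own growth and repair. It had 13 WT and 36 Mbnl1 KO tags (37.8 and 75.5 CPM, chr10:87321010-87399792, plus strand), a ratio of 1.996 (1.03 to 4.10). Without single-base tags the ratio was 1.52 (0.752 to 3.33), and with at least 2 reads required as well it was 0.689 (0.313 to 1.63). The tags lay mostly in the 3′ UTR, with 8 in WT and 22 in Mbnl1 KO, and none fell in the coding exons. This rests on the choice of transcript, since the one with the longest coding sequence has 0 tags in its 3′ UTR and 12 WT and 32 Mbnl1 KO tags in introns. The main site, shown above with 2 TGCT words (cluster chr10:87398422-87398460), held 3 WT and 8 Mbnl1 KO tags and stood 1355 nt before the annotated end of the gene. Reads were less even than tags, since 1 WT tag in the 3′ UTR at chr10:87396849-87396873 carried 4832 of the 5372 WT reads. Only 1 Mbnl1 KO tag, of 1 read, overlapped that tag. The most read Mbnl1 KO tag, with 2825 reads, lay at another 3′ UTR site, chr10:87398206-87398226.

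The receptor genes were the longest of the set and were contacted thinly. Insr, the insulin receptor (chr8:3150922-3279617, minus strand), had 12 WT and 26 Mbnl1 KO tags, 34.9 and 54.6 CPM, with a ratio of 1.56 (0.761 to 3.40), which was 1.12 without single-base tags and turned to 0.716 (0.279 to 2.06) with both filters. Its 3′ UTR had 1 WT and 11 Mbnl1 KO tags (ratio 7.93, 1.15 to 341), whereas its introns had 10 and 12 (0.865, 0.343 to 2.24). No cluster reached 5 tags, and the densest Insr sites were Mbnl1 KO only, with 4 tags in the 3′ UTR (chr8:3154991-3155021) and 4 in an intron (chr8:3173304-3173327). Most tags at each of these sites share a position and length, so they need not be separate contacts. Exon 11, the alternative exon of 36 nt (chr8:3181702-3181737), had 0 tags in both tables. The stretch from exon 10 to exon 12 (10062 nt) also had 0 tags. It holds 88 of the MBNL words, or 0.875 per 100 nt, a density that was not compared with other sequence. At this depth 0 tags allow up to 8.73 CPM in WT and 6.30 in Mbnl1 KO, so binding near exon 11 was not detectable rather than absent.

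Igf1r, the IGF1 receptor (chr7:75097713-75371484, plus strand), had 16 WT and 37 Mbnl1 KO tags, 46.6 and 77.6 CPM, with a ratio of 1.67 (0.905 to 3.21), which was 1.19 without single-base tags and turned to 0.627 (0.253 to 1.69) with both filters. All 53 lay in introns. They were scattered, and only 1 site had 3 tags, all from Mbnl1 KO and all of the same position and length (chr7:75352988-75353013). The annotation gives Igf1r a 3′ UTR of only 197 nt, so sites in a longer 3′ UTR would fall outside the gene body. In the 10 kb downstream, 1 WT and 8 Mbnl1 KO tags were found, 3 of them in an Mbnl1 KO site that begins 5961 nt past the annotated end (chr7:75377446-75377476). On the antisense strand Igf1r had 22 WT and 16 Mbnl1 KO tags, more than on the sense strand in WT, which was seen at no other member with sense tags in WT.

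Irs1 and Irs2 encode the docking proteins that carry the signal from both receptors, and they differed widely in tags. Irs1 (chr1:82229676-82287991, minus strand) had 18 WT and 51 Mbnl1 KO tags, 52.4 and 107 CPM, with a ratio of 2.04 (1.17 to 3.72) and of 1.54 (0.861 to 2.89) without single-base tags, or 1.18 with both filters. None of them fell in its coding exon sequence of 3696 nt. The 3′ UTR had 9 WT and 21 Mbnl1 KO tags (1.68, 0.739 to 4.17), and the intron had 8 and 30 (2.70, 1.21 to 6.82). Near the end of the 3′ UTR the site shown above (cluster chr1:82230207-82230265) had 3 WT and 6 Mbnl1 KO tags, and the next one upstream (chr1:82230309-82230369) had 0 and 5. The intron held 3 clusters of at least 5 tags. The one with 3 MBNL words (chr1:82281059-82281087) had 0 WT and 6 Mbnl1 KO tags, several of which share a position and length. The others (chr1:82262995-82263020 and chr1:82277834-82277856), with none of the words in their windows, had 1 and 4, and 2 and 4. A single 3′ UTR tag, chr1:82233467-82233487, carried 3644 of the 4579 WT reads, and no Mbnl1 KO tag overlapped it.

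Irs2 (chr8:10986980-11008458, minus strand) had 0 WT tags and 1 Mbnl1 KO tag, in its intron, so no ratio can be read from it. Its annotated 3′ UTR is 30 nt long. In the 10 kb downstream there were 5 WT and 6 Mbnl1 KO tags, which were not counted as Irs2.

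Pik3r1 encodes the p85 regulatory subunit that brings PI 3-kinase to the Irs proteins, and it carried the most tags of the set. It had 25 in WT and 64 in Mbnl1 KO (72.8 and 134 CPM, chr13:102450716-102538172, minus strand), a ratio of 1.85 (1.15 to 3.06). Without single-base tags the ratio was 1.36 (0.826 to 2.33), and with both filters 1.14. In the 3′ UTR the counts were 7 and 31 (3.19, 1.38 to 8.59), and in introns 16 and 31 (1.40, 0.741 to 2.73). Sites within this gene went different ways, although their intervals are wide. The distal 3′ UTR site with 2 TGCT words (cluster chr13:102451590-102451624) had 1 WT and 7 Mbnl1 KO tags, while the proximal one (chr13:102453986-102454027) had 5 in each table. The intron site with 2 TGCT words (chr13:102478431-102478489) had 5 WT and 3 Mbnl1 KO tags. At another intron site (chr13:102508506-102508532), which lacks the words, there were 1 WT and 5 Mbnl1 KO tags, and 1 of the latter held 7471 of the 10858 Mbnl1 KO reads of the gene. A cluster at chr13:102456072-102456109, with 3 tags in each table, consisted of single-base tags at a run of A.

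Grb10 encodes an adaptor that binds the insulin and IGF1 receptors and dampens their signal. It had 22 WT and 41 Mbnl1 KO tags (64.0 and 86.0 CPM, chr11:11830511-11938686, minus strand), which gives the lowest ratio of the set, 1.34 (0.782 to 2.37). It was 1.13 without single-base tags and turned to 0.627 with both filters. Its regions differed in count, with 7 WT and 24 Mbnl1 KO tags in the 3′ UTR (2.47, 1.03 to 6.79) and 13 and 14 in introns (0.776, 0.338 to 1.79). The highest site of all members lay 124 nt from the annotated end of the gene (cluster chr11:11830619-11830658) with 4 WT and 9 Mbnl1 KO tags, and its window holds 3 TGCT words. The adjoining cluster (chr11:11830592-11830616) had 1 and 4 tags. These 3′ UTR calls rest on transcripts other than the one with the longest coding sequence, which has no 3′ UTR tags.

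Akt1 and Akt2 encode the kinases below PI 3-kinase. Akt1 (chr12:113892032-113913095, minus strand) had 6 WT and 13 Mbnl1 KO tags, 17.5 and 27.3 CPM, with a ratio of 1.56 (0.554 to 5.01), and 17 of its 19 tags lay in the 3′ UTR. Its scaled direction turned without single-base tags, to 0.984 on 6 WT and 12 Mbnl1 KO tags. With both filters it was 0.627 (0.134 to 3.87) on 3 and 6. Its main cluster (chr12:113892115-113892195), whose window holds none of the MBNL words, had 3 WT and 7 Mbnl1 KO tags. The smaller site with 2 TGCT words (chr12:113892330-113892362) had 2 tags in each table and the most read tag of both tables, with 69 reads in WT and 802 in Mbnl1 KO. Akt2 (chr7:28376571-28425845, plus strand), the form most tied to glucose uptake, had 4 WT and 13 Mbnl1 KO tags, 11.6 and 27.3 CPM, with a ratio of 2.34 (0.724 to 9.86), or 1.48 without single-base tags and 1.10 with both filters. The Mbnl1 KO tags of Akt2 were all intronic (1 WT and 13 Mbnl1 KO, ratio 9.37, 1.41 to 398), and its 3′ UTR had 2 WT tags and 0 in Mbnl1 KO. One Akt2 intron tag, at the site shown above (chr7:28385377-28385397), held 14324 of the 14404 Mbnl1 KO reads of the gene, and no WT tag overlapped it. The other tags of that site share its position and length.

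Slc2a4, which encodes the insulin-responsive transporter GLUT4, had the highest ratio of the set on few WT tags. It had 2 WT and 19 Mbnl1 KO tags (5.82 and 39.9 CPM, chr11:69756045-69761690, minus strand), a ratio of 6.85 (1.65 to 60.6). Of all genes with at least 20 tags, 3.06% had a ratio as high. None of its tags was a single-base tag, and the ratio without such tags elsewhere was 4.67 (1.13 to 41.4). With at least 2 reads required as well, 2 WT and 16 Mbnl1 KO tags remained, a ratio of 2.51 (0.589 to 22.5). The adipocyte markers given above, with a summed ratio of 4.24 (1.98 to 10.4), were also higher in Mbnl1 KO. Of their tags, 4 of 8 in WT and 22 of 47 in Mbnl1 KO were at Fabp4. Skeletal muscle markers were higher in sum too (2.64, 2.46 to 2.83). The part of either cell type in the Slc2a4 counts was not tested.

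The tags of Slc2a4 lay in exons only. Coding exons had 2 WT and 12 Mbnl1 KO tags, the 3′ UTR 0 and 7, and the introns none. The 12 are 63.2% (38.4 to 83.7) of the Mbnl1 KO tags of the gene, beside 9.72% in coding exons over all protein-coding genes in that table. These shares are not adjusted for length, and the gene is compact, with 1530 coding and 2813 intron nt of 5646. Per kb, the tags of both tables stood at 9.15 in its coding exons and 8.47 in its 3′ UTR. The distal coding site shown above (cluster chr11:69756987-69757045) had 1 WT and 7 Mbnl1 KO tags, and the proximal one (chr11:69760105-69760136) had 1 and 4. The 0 WT tags in the 3′ UTR allow up to 8.73 CPM against 14.7 counted in Mbnl1 KO, and the exact interval of the ratio begins at 1.04.

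**Figure D2:**
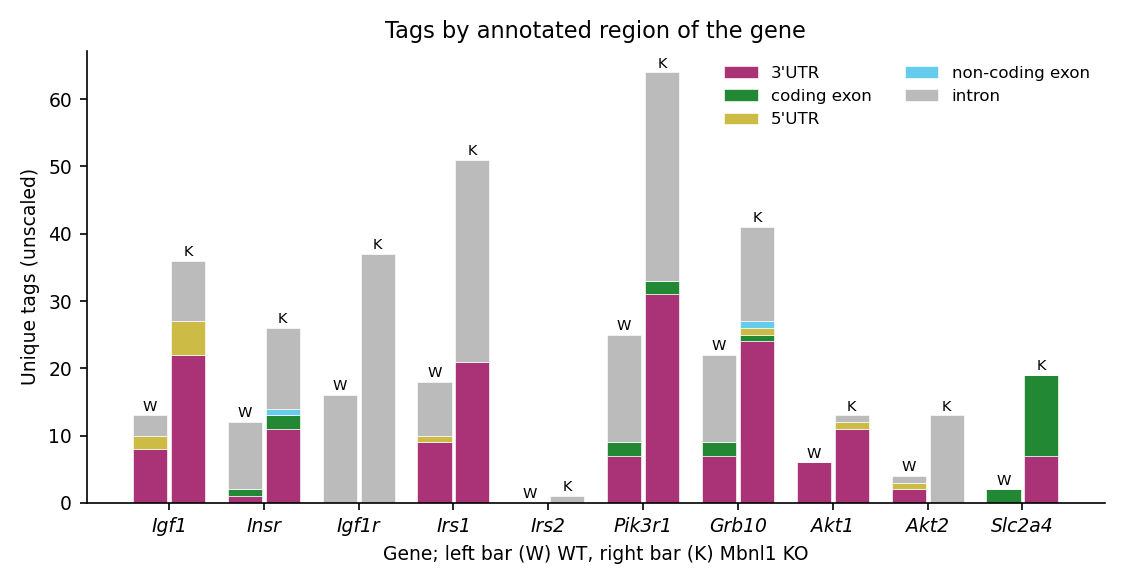
Unscaled tags of each gene by annotated region, with WT (W) on the left and Mbnl1 KO (K) on the right of each pair. The 3′ UTR holds most exon tags of Igf1, Irs1, Pik3r1, Grb10 and Akt1, all Igf1r tags are intronic, and 14 of the 24 coding exon tags belong to Slc2a4.

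By region, the 10 genes together had 40 WT and 127 Mbnl1 KO tags in 3′ UTRs, a ratio of 2.29 (1.59 to 3.35). Introns had 67 and 148 (1.59, 1.19 to 2.16), coding exons 7 and 17 (1.75, 0.690 to 4.99) and 5′ UTRs 4 and 7 (1.26, 0.321 to 5.88). Non-coding exons had 0 and 2. These intervals overlap, and a difference in ratio between regions was not tested. Without single-base tags and with at least 2 reads required, the ratio was 0.964 in 3′ UTRs and 0.778 in introns. Per length the 3′ UTRs were by far the densest, with 1.44 WT and 4.57 Mbnl1 KO tags per kb against 0.0876 and 0.194 per kb of intron. The 3′ UTR share was 33.9% (25.4 to 43.2) of the WT tags and 42.2% (36.5 to 48.0) of the Mbnl1 KO tags of the set. Over all protein-coding genes it was 16.8% and 30.6%, or 22.0% and 33.0% without single-base tags, where the members stood at 38.8% (29.4 to 48.9) and 43.6% (37.7 to 49.5). With regions of the longest coding transcript only, the members' shares were 21.2% and 26.9%, beside 14.6% and 26.6% over all protein-coding genes. Coding exons had no tag at 6 of the 10 genes. Of the 28 pairs of gene and region with tags, the interval lay above 1 at 6, which are those named above for Insr, Irs1, Pik3r1, Grb10, Akt2 and Slc2a4, and below 1 at none. Over all 28701 such pairs of protein-coding genes, many of them with very few tags, the shares were 7.32% and 1.3%. Without single-base tags the interval lay above 1 at 0 of the 26 member pairs that had tags, by the same exact intervals, so none of these 6 calls held. The tags themselves were unchanged at the 3′ UTRs of Insr, Pik3r1 and Slc2a4 and fell slightly at the other pairs, while the table totals that scale the ratio fell more in WT. On the antisense strand of the members, 50 tags came from WT and 59 from Mbnl1 KO (ratio 0.851, 0.574 to 1.27).

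**Figure D3:**
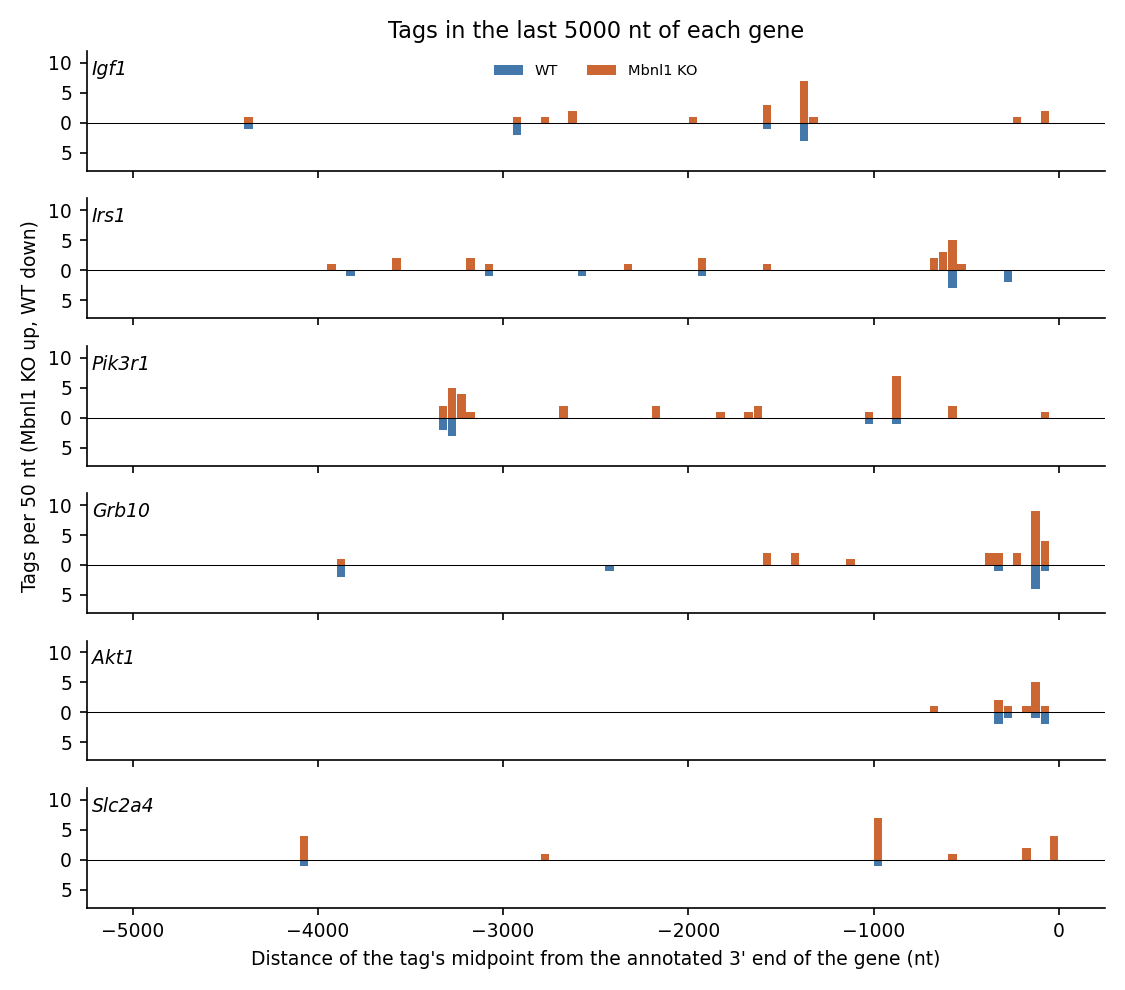
Tags in the last 5000 nt of 6 genes, in bins of 50 nt by distance of the tag's midpoint from the annotated 3′ end, with Mbnl1 KO counts up and WT counts down. The peak of Grb10 sits 124 nt from the end, that of Igf1 1355 nt, and Pik3r1 has its 2 main 3′ UTR sites at 894 and 3295 nt.

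Of the 16 member clusters, 8 lay in 3′ UTRs, 6 in introns and 2 in coding exons, and together they held 121 of the 419 sense tags (28.9%). The ratio was above 1 at 13 of the 16, against 72.9% of the 7395 clusters on the strand of protein-coding genes. The interval lay above 1 at none of the 16, against 13.8%, and 2 of them, both in Irs1, had 0 WT tags. Their intervals began at 0.661 with 5 tags and at 0.849 with 6, so a cluster of 5 or 6 tags could not pass whatever its split. No single site could thus be called different between the tables at this depth. The reads behind the tags were uneven, with 54 of the 118 WT tags and 121 of the 301 Mbnl1 KO tags resting on 1 read. Over all tags the share resting on 1 read was higher, 79.0% in WT and 59.5% in Mbnl1 KO.

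**Figure D4:**
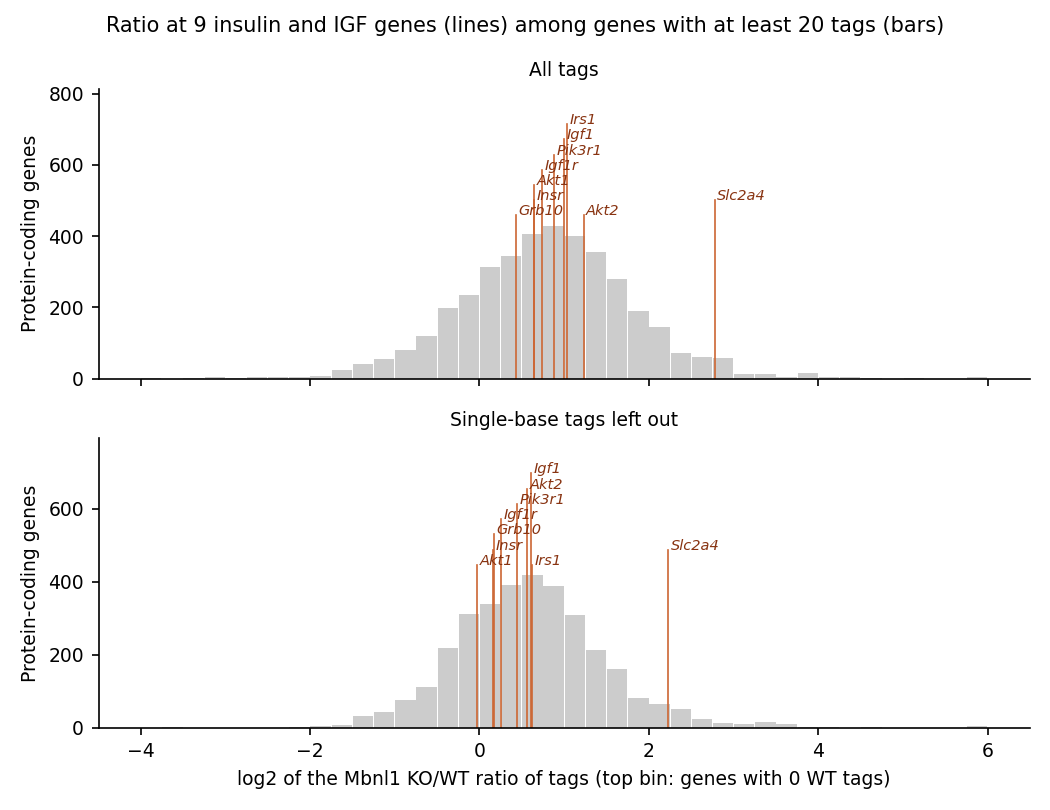
Ratio of tags, as log2, at the 9 members with WT tags (lines) among protein-coding genes with at least 20 tags (bars), with all tags (top) and without single-base tags (bottom); Akt1 and Akt2, with fewer tags, are drawn too. Of the members, 8 lie within the bulk of the genes and Slc2a4, at a ratio of 6.85 with all tags, lies in the upper tail.

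A further 63 genes of the pathway were counted from a list by role, and 31 of them had at least 20 tags. A ratio of at least 2 was reached by 22 of these 31 (71.0%), beside 41.6% of all such genes. The interval lay above 1 at 19, beside 38.6%, and without single-base tags at 11 of 30, beside 26.5%. With both filters 3 of 19 reached a ratio of 2, beside 22.6%. The median ratio was 2.40, beside 1.75 over all genes, 1.78 beside 1.48 without single-base tags and 1.15 beside 1.33 with both filters. Of the genes named below, Igfbp7, Igf2r, Shc1, Gab1, Pik3ca, Gsk3a, Foxo3, Snap23 and Phlpp2 had an interval that no longer lay above 1 without single-base tags. Of the 63, 4 genes (Insrr, Mlst8, Socs1 and Socs3) had no tags.

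Ligands and binding proteins had the highest summed ratio of the groups, 3.02 (2.26 to 4.08), with 59 WT and 247 Mbnl1 KO tags. Igf2, the fetal growth factor, had 2 and 22 tags (7.93, 1.95 to 69.6). The binding proteins that hold IGFs outside the cell followed, with Igfbp5 at 18 and 85 (3.40, 2.03 to 6.02), Igfbp4 at 17 and 63 (2.67, 1.54 to 4.87), Igfbp7 at 16 and 52 (2.34, 1.32 to 4.40) and Igfbp6 at 2 and 21 (7.57, 1.85 to 66.6). Igfbp3 had 4 tags in each table (0.721, 0.134 to 3.87). Fibroblast markers, which were also higher in sum (ratio 3.04, 2.59 to 3.58), moved with these genes, and their part was not tested. Among receptors and adaptors, the interval lay above 1 at Gab1 (2.20), Igf2r (3.75), the clearance receptor for IGF2, and Shc1 (7.21).

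In the lipid kinase and phosphatase group, Pik3ca, the catalytic partner of p85, had a ratio of 2.24. Of the kinases, Gsk3a (5.05) had an interval above 1. So had Rptor (2.16) and Rictor (3.60), which define the 2 mTOR complexes, and Foxo3 (2.21), a transcription factor that Akt inactivates.

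On the path to glucose transport, Rab10, a small GTPase of GLUT4 vesicles, had 46 WT and 186 Mbnl1 KO tags (2.92, 2.10 to 4.12), the most of the 63 genes. Tbc1d1, a Rab GTPase-activating protein, had 18 and 62 (2.48, 1.45 to 4.46), Gys1, the muscle glycogen synthase, 6 and 32 (3.84, 1.59 to 11.2) and Snap23 3 and 17 (4.09, 1.18 to 21.8). Stx4a had 7 and 1, the only interval below 1 (0.103, 0.00229 to 0.802), and without single-base tags 2 and 1. Of the negative regulators, Ptpn1, the phosphatase that dephosphorylates the insulin receptor, had 1 and 18 (13.0, 2.05 to 541), and Phlpp2 had a ratio of 3.97.

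**Figure D5:**
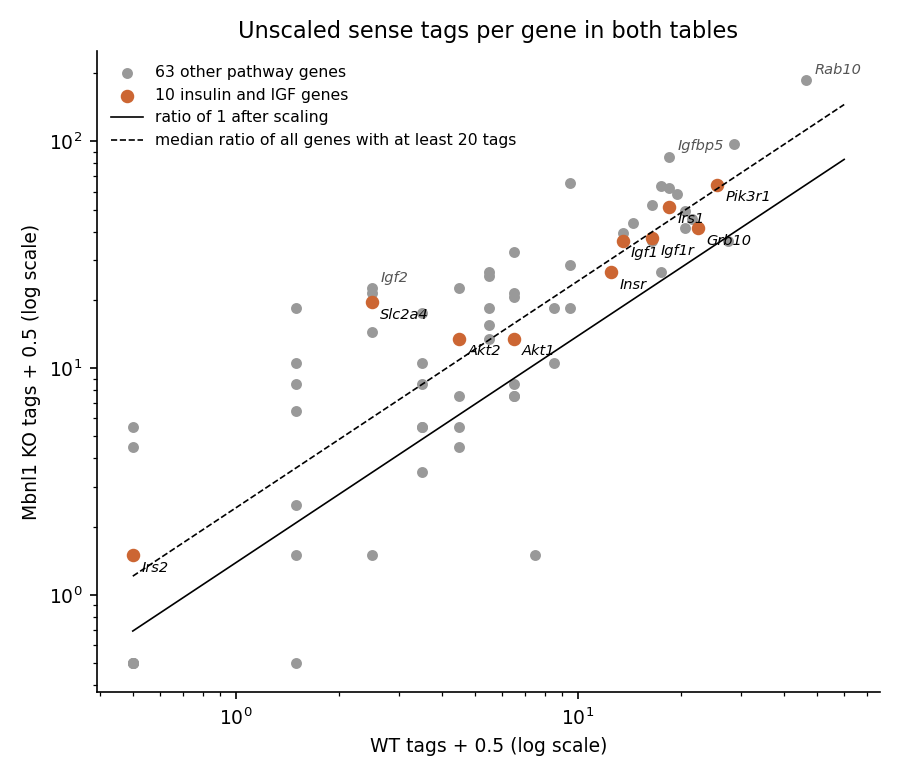
Unscaled WT and Mbnl1 KO tags of the 10 members and the 63 other pathway genes, 0.5 added to each count, on log axes. The solid line marks a ratio of 1 after scaling and the dashed line the median ratio of 1.75 of all genes with at least 20 tags. Most members lie near the dashed line, and Slc2a4 and Igf2 lie above it.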

How the data were processed

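The authors removed low quality reads, aligned the rest to mm9 with BWA (version not given in the sources used here), dropped short reads, removed likely PCR copies and then merged the tags of 3 mice per genotype. The deposited count beside a tag gives how many reads support that unique tag, and it was not normalized. Libraries made with high and low RNase are not told apart in the tables.

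Tags overlapping a gene body on its strand were counted in Python 3.11.15 (scipy 1.17.1, pandas 2.3.3, numpy 2.4.6) over the mm9 GENCODE vM1 annotation, the genome was indexed with samtools 1.23.1, and matplotlib 3.10.9 drew the figures. Counts were divided by the tags of the table, whose number limits precision. A tag was given to the first region it touched, in the order 3′ UTR, coding exon, 5′ UTR, non-coding exon and intron, over all transcripts of the gene. Ratios carry exact Clopper-Pearson intervals at 95%, and 0 tags were read as up to 3. Clusters are runs of overlapping tags pooled over both tables.

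The members and lists were chosen with earlier results of these data known. All members are named, and of the other pathway genes the 5 with the most tags and each with an interval above or below 1, of which some are not reported here, with Igfbp3 named after its values were seen. In simulated counts of 3888 genes for Mbnl1 KO against WT, 96.8% of intervals held the true ratio. The alternatives were other scalings, tag filters, collapsing of tags, counting by midpoint, 1 transcript per gene, a longer motif window and larger clusters. Adding the 10 kb downstream, the region calls without single-base tags and the longest transcripts of all genes were chosen after the data were seen.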

Additional observations from a re-analysis of the deposited data

How the results depend on the processing

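The summed ratio of the 10 genes, 1.84 in the report, was 1.37 with single-base tags left out, 1.05 with tags of at least 2 reads, 0.900 with both, which reverses its direction, 2.55 with no scaling and 1.05 scaled to the median gene. The median ratio of the 10 genes, 1.92, which counts Irs2 as infinite, was 1.42, 1.06, 0.907, 2.66 and 1.10 in that order. The number of the 10 genes with an interval above 1, 4 in the report, was 1 with single-base tags left out, 0 with tags of at least 2 reads, 0 with both, 2 with the same 5′ end collapsed, 8 with no scaling and 0 scaled to the median gene. The number of other pathway genes with a ratio of at least 2, 22 in the report, was 13, 6, 3 and 12 with these first 4 settings, and 8 scaled to the median gene. The share of all genes with a ratio of at least 2, 41.6% in the report, was 22.6% with both filters, 62.9% with no scaling and 13.7% scaled to the median gene. The reversal of the summed ratio is one of scaled values. Unscaled, the 10 genes kept more tags in Mbnl1 KO, with 118 in WT and 301 in Mbnl1 KO at first and 62 and 178 with both filters.

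By region, the 3′ UTR ratio was 1.54 with single-base tags left out, 1.16 with at least 2 reads and 0.964 with both, and the intron ratio was 0.882 with at least 2 reads and 0.778 with both, so these scaled directions reversed too. The unscaled tags with both filters were 26 in WT and 80 in Mbnl1 KO in 3′ UTRs, and 31 and 77 in introns. With regions of the longest coding transcript, the 3′ UTR share was 21.2% in WT and 26.9% in Mbnl1 KO, since those transcripts of Igf1 and Grb10 hold none of their 3′ UTR tags. The share of member clusters with an MBNL word was 88.9% (8 of 9) with at least 2 reads, with both filters and with the same 5′ end collapsed, beside 68.2%, 71.2% and 46.1% of all clusters in genes, and no Insr exon 11 tag appeared under any setting. Of the single genes whose interval lay above 1, Igf1 reversed, to 0.821 with at least 2 reads and 0.689 with both filters, while Irs1, Pik3r1 and Slc2a4 stayed above 1 under all 7 alternatives, from 1.17, 1.06 and 2.51 upward, although their intervals lay above 1 in only 3, 2 and 4 of the 7. Each ratio is scaled by the table totals, and the factor applied to every gene was 0.721 with all tags. It was 0.492 with single-base tags left out, 0.373 with at least 2 reads and 0.313 with both. Why the tables differ in single-base and 1-read tags, and any other cause of these changes, was not tested. Adding the 10 kb downstream gave 1.69, and leaving out Pik3r1 1.84. No paired analysis was possible because the mice are pooled by genotype, which also prevented leaving a mouse out. Low WT counts limit precision at Irs2, Slc2a4, Akt2, Akt1 and at each cluster.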
